A study of Mus musculus with 24 samples.

Results

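In wild-type mouse retina at postnatal day 17 (P17), 559 of the 2855 peaks of SOX9 (19.6%) carried the histone mark H3K27ac and lacked H3K4me3. They were chosen by overlap of 1 bp or more between the deposited peak lists: at least 1 P17 H3K27ac peak and no P17 H3K4me3 peak. Of the other P17 SOX9 peaks, 1898 overlapped H3K4me3 and 398 overlapped neither mark, and the 8 lists of the series held 349901 peaks in all. The lists came from CUT&RUN, in which an antibody brings a nuclease to a chromatin-bound protein and the DNA released around it is sequenced. The series compared wild-type retinas at postnatal day 2 (P2) and P17, with no other genotype or treatment given in the labels, and each reaction took 600000 nuclei of whole retina. At each age there were 2 libraries for SOX9, for H3K4me3 and for H3K27ac, 4 for SOX8 (from 2 antibodies) and 2 with nonspecific IgG, and 1 list was deposited for each target and age except IgG, which was not analysed here. Lists named no library and carried no peak height, so the values below have no replicate error, the depth is unknown, and tests over peaks compare these lists and not animals.

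SOX9 and its close relative SOX8 are transcription factors with an HMG-box DNA-binding domain. In the retina SOX9 is known from progenitors and from Müller glia, the main retinal glia, which are a minority beside rod photoreceptors in whole tissue. H3K4me3 sits at active gene starts, and H3K27ac at active gene starts and enhancers, so a site with H3K27ac and without H3K4me3 is the usual mark of a candidate enhancer. As a check of the tissue label, P17 H3K4me3 lay on or within 5 kb of 29 of 29 genes of rod phototransduction and outer segments, 13 of 14 photoreceptor transcription factors and 20 of 20 genes of the photoreceptor synapse, against 11137 of all 21887 protein-coding genes (50.9%). It was at 15 of 28 Müller glia genes, 10 of 18 bipolar cell genes, 8 of 21 genes of amacrine, horizontal and ganglion cells, 8 of 22 progenitor genes and 4 of 14 cone genes. For microglia, endothelium, pigment epithelium and astrocytes it was at 5 of 20 genes, and for glycolysis at 20 of 20.

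Of the 559 peaks, 84 covered a known start of a gene although no H3K4me3 peak lay there. The RefSeq promoter windows (GRCm38.p6, 250 bases before to 50 after the start) of the 6 widest of these that also overlapped a P17 SOX8 peak are shown as examples of gene starts that lay under such a SOX9 peak. The SOX8 peak and H3K27ac overlapped the SOX9 peak, and neither need cover the window. H3K27ac covered 9.94% of the SOX9 peak at Espn, 17.25% at Matk, 49.28% at Rap1gap, 53.56% at Lama5 and 70.9% at Mfap2. A gene can have several starts, and those printed for Rap1gap, Aatk and Espn lie within the gene. Rap1gap and Aatk had P17 H3K4me3 within 1 kb of another start, so the gene as a whole did not lack that mark. Capitals mark the SOX core motifs ACAAAG and ACAATG on either strand.
Mfap2: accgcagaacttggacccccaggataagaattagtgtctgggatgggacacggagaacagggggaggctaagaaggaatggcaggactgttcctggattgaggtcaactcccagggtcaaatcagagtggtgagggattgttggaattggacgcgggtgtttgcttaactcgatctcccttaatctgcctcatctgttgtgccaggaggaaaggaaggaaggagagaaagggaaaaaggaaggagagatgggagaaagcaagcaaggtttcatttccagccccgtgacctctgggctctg
Rap1gap: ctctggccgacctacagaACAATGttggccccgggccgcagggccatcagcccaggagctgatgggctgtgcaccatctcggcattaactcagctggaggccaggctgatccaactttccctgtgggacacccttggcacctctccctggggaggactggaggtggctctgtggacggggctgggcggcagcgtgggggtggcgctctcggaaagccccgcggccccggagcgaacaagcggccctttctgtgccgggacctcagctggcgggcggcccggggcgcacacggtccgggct
Lama5: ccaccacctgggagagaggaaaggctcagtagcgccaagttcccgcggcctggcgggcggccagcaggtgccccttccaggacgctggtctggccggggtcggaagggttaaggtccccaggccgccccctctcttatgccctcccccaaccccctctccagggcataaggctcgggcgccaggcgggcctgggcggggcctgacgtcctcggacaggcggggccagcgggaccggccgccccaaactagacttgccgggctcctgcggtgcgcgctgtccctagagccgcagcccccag
Matk: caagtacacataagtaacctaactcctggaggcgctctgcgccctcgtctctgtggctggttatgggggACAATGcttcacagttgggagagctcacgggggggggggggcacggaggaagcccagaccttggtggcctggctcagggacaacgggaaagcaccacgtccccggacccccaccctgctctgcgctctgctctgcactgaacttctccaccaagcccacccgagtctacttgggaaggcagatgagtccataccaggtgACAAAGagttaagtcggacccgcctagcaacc
Aatk: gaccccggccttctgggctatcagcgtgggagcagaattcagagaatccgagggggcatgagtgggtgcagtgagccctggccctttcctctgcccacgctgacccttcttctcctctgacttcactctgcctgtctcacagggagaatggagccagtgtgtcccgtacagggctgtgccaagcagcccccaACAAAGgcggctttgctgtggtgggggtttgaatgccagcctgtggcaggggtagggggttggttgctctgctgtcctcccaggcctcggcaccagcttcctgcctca
Espn: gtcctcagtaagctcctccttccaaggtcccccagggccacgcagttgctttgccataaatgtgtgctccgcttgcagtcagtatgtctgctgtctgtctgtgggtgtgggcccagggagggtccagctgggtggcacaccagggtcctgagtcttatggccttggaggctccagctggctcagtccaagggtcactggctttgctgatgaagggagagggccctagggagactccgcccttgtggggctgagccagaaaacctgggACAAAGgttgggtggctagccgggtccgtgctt
The Mfap2 window is chr4:141010174-141010473 on the plus strand. The Rap1gap window is chr4:137681353-137681652 on the plus strand. The Lama5 window is chr2:180225810-180226109 on the minus strand. The Matk window is chr10:81252685-81252984 on the plus strand. The Aatk window is chr11:120017105-120017404 on the minus strand. The Espn window is chr4:152128876-152129175 on the minus strand. Motifs were found in the windows of Rap1gap, Matk, Aatk and Espn and not in those of Mfap2 and Lama5. Where a peak held several windows, the one with the lowest coordinate was taken. Over all 97 promoter windows whose start lay under an H3K27ac-only peak, 18 held either motif (18.6%, 95% Wilson interval 12.1 to 27.4%). The 97 windows came from 79 genes, and the interval takes no account of several windows in 1 gene. Either motif was in 25.7% of all 21263 windows, 16.1% of the 2063 under SOX9 peaks at H3K4me3 and 21.0% of the 105 under SOX9 peaks with neither mark. The median GC content of the 97 windows was 61.0%, against 65.3% at H3K4me3, 62.0% with neither mark and 56.3% for all windows. Their median number of CpG dinucleotides was 12, against 25 at H3K4me3, 14 with neither mark and 13 for all windows.

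H3K27ac-only SOX9 sites lay mostly within genes. Of the 559 peaks, 303 (54.2%, 95% Wilson interval 50.1 to 58.3%) were inside a protein-coding gene and covered no listed gene start or end. The same held for 21.4% of all P17 SOX9 peaks. This class is called inside a gene below, and a peak over a start that lies within a gene counts as covering a start. A further 84 covered a known gene start, 47 (8.41%) covered an end of a gene whose strand was not known, and 47 (8.41%, against 3.78% of all P17 SOX9 peaks) covered the other end of a gene. Counting ends without strand as starts gives 131 peaks (23.4%), against 68.2% of all P17 SOX9 peaks. The last 78 peaks (14.0%, against 6.62%) lay outside protein-coding genes, at a median of 15970 bp from the nearest one, and 17 of them lay over 50 kb away. Because H3K4me3 itself marks gene starts, these shares describe the choice of peaks and were not tested. The annotation used gives gene ends only, so exons and introns were not assigned.

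**Figure D1:**
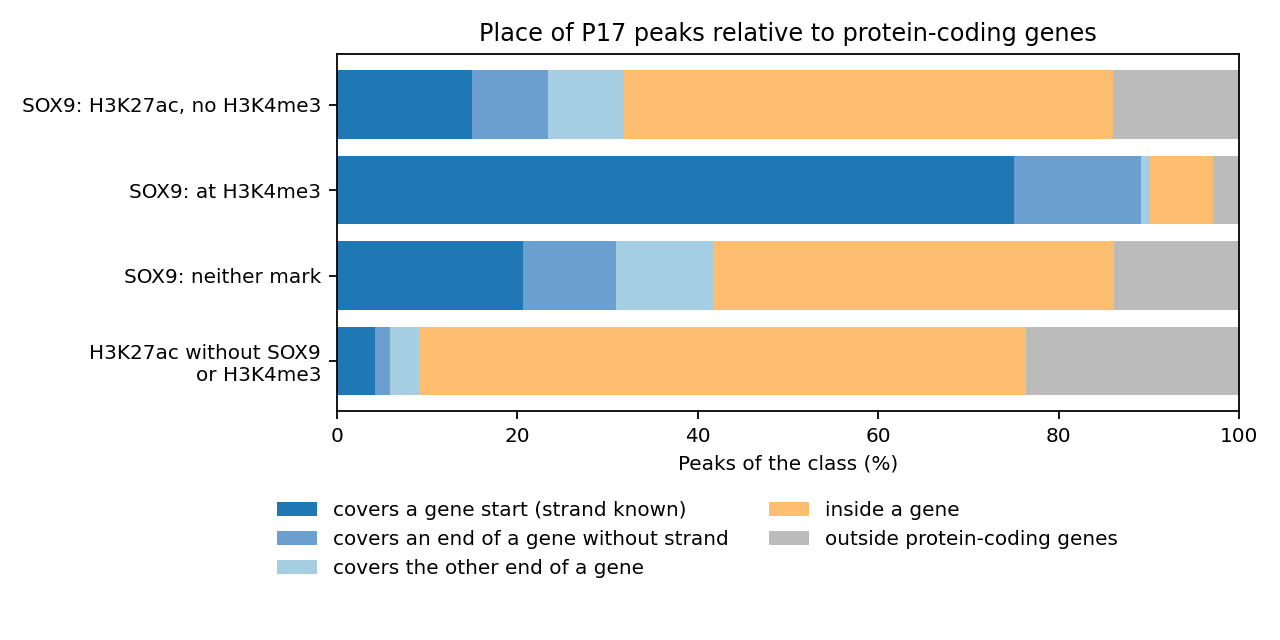
Share of peaks (%, horizontal axis) by place relative to protein-coding genes, for 3 classes of P17 SOX9 peaks and for P17 H3K27ac peaks without SOX9 or H3K4me3; each bar adds to all peaks of its class. SOX9 peaks with H3K27ac and no H3K4me3 were inside a gene and on no gene start in 54.2% of cases, against 6.95% of those at H3K4me3. Peaks over a start that lies within a gene count as covering a start.

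Of SOX9 peaks with neither mark, 44.5% (39.7 to 49.4%) were inside a gene and 13.8% outside protein-coding genes. Of the 20896 P17 H3K27ac peaks without H3K4me3 or SOX9, 67.3% were inside a gene, 23.6% outside and 4.24% on a known gene start. Among the 227 H3K27ac-only SOX9 peaks inside 1 gene of known strand, 44 had their centre in the third of the gene nearest its start, 77 in the middle and 106 (46.7%) in the third nearest its other end. The share nearest the other end was 46.9% of 130 such peaks with neither mark and 28.9% of 76 at H3K4me3. For the 227, the median centre lay 23.7 kb from the nearest gene start, and the median peak took up 8.39% of its gene's length.

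The narrowest site spanned 723 bp, at Cdk8, the median was 6320 bp and the widest 27245 bp, and 371 of 559 (66.4%) fell between 5 and 8 kb. SOX9 peaks with neither mark had a similar median of 6576 bp, with 68.8% between 5 and 8 kb, while peaks at H3K4me3 were narrower, with a median of 4462 bp and 29.1% in that range. Overlap with a mark depends on width, so widths are given without a test.

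**Figure D2:**
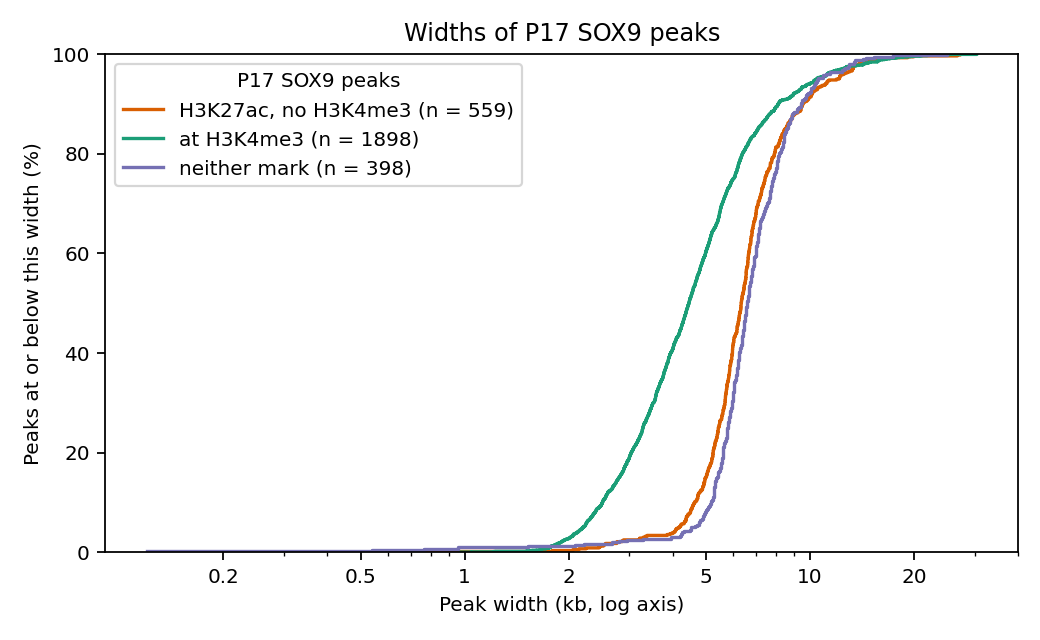
Cumulative share of P17 SOX9 peaks (%, vertical axis) by width (kb, log axis), 1 line for each class. Lines for peaks with H3K27ac alone and with neither mark rise together around their medians of 6320 and 6576 bp, to the right of peaks at H3K4me3 (median 4462 bp).

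The marks that chose the peaks were mostly far from their limits. H3K27ac covered a median of 87.8% of a peak, 236 peaks were covered wholly, and 10 were covered over less than 10% of their width. The nearest P17 H3K4me3 peak was a median of 20838 bp away, and 47 peaks (8.41%) had one within 2 kb. Just inside the rule, the smallest H3K27ac overlaps were 44 bp at Glis1, 72 bp at Flrt1 and Macrod1, 177 bp at Cacfd1 and Slc2a6, 267 bp at Ap1g2 and Jph4, and 400 bp at Arrb1. Just outside it, peaks with H3K27ac touched H3K4me3 by 94 bp at Slco4a1, 108 bp at Slc4a3, 160 bp near Slc6a9, 207 bp at Prkab1 and 241 bp at Cxxc5. Seen from H3K27ac, 437 of 21371 P17 H3K27ac peaks without H3K4me3 (2.04%) held one of these SOX9 peaks. Their median width was 5055 bp, against 3083 bp for those without SOX9. These counts leave out H3K27ac peaks that reach H3K4me3 elsewhere, and some sites lie in such a peak, as does the widest, in Gse1. Over all the sites, the widest H3K27ac peak at each had a median width of 9913 bp.

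SOX8 was the first readout that the choice of peaks did not use. At P17 a SOX8 peak overlapped 139 of the 559 sites (24.9%, 95% Wilson interval 21.5 to 28.6%), against 47.5% of all P17 SOX9 peaks. This was fewer than among SOX9 peaks at H3K4me3, of which 60.7% had SOX8, a difference of -35.9 percentage points (95% Newcombe interval -39.9 to -31.5, two-sided Fisher's exact test, adjusted p = 2.63e-51). It was more than among peaks with neither mark, of which 16.3% had SOX8, a difference of 8.53 points (3.32 to 13.5, Fisher's exact adjusted p = 0.00204). P-values were adjusted over 7 comparisons. Where SOX8 was present it covered a median of 49.2% of the SOX9 peak, and 10 sites held 2 or more SOX8 peaks. Of the 393 P17 SOX8 peaks that themselves had H3K27ac and no H3K4me3, 134 (34.1%) overlapped one of these SOX9 sites, and 128 SOX9 sites were involved.

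Most sites had no SOX peak at P2. P2 SOX9 overlapped 119 of 559 (21.3%, 18.1 to 24.9%), against 58.6% of all P17 SOX9 peaks, and P2 SOX8 overlapped 47 (8.41%, 6.38 to 11.0%), against 44.0% of all P17 SOX9 peaks. Neither was found at 438 sites (78.4%). No such joint share is given for other P17 SOX9 peaks, and each P2 SOX list was rarer still at peaks with neither mark. The share with P2 SOX9 differed by -59.1 points from peaks at H3K4me3, where it was 80.4% (interval -62.7 to -55.1, Fisher's exact adjusted p = 1.26e-144). It was 14.0 points above that of peaks with neither mark, 7.29% (interval 9.63 to 18.2, Fisher's exact adjusted p = 2.18e-09). For P2 SOX8 the differences were -54.7 points from peaks at H3K4me3 (63.1%, interval -57.6 to -51.3, Fisher's exact adjusted p = 7.54e-128) and 5.64 points from peaks with neither mark (2.76%, interval 2.71 to 8.51, Fisher's exact adjusted p = 0.000395). Sites with H3K27ac alone thus stood between the other classes in all 3 SOX lists. Among peaks that covered no gene start, a setting chosen after seeing the data, the P2 differences from peaks at H3K4me3 were -30.7 points for SOX9 and -25.8 for SOX8. With each SOX9 peak trimmed to 500 bp around its centre, the P2 differences from peaks with neither mark were 7.78 points for SOX9 and 3.64 for SOX8. The P2 lists held 5476 SOX9 and 2653 SOX8 peaks, and their thresholds are not given in the sources used here.

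**Figure D3:**
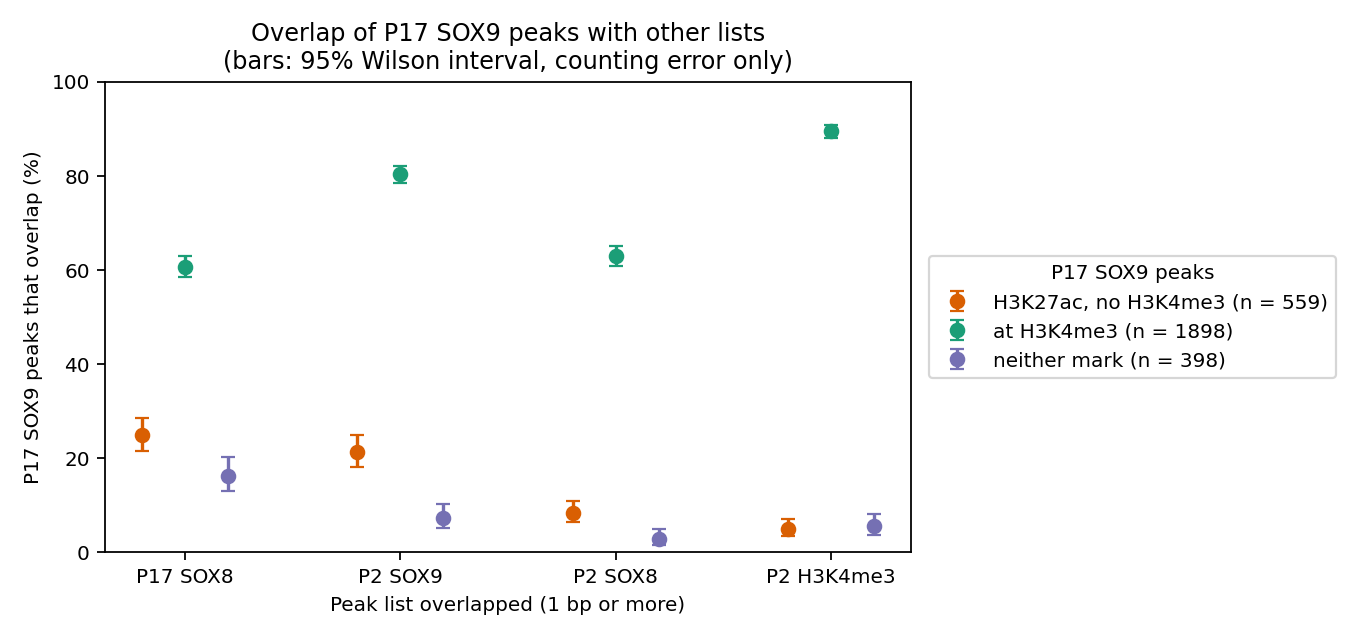
Share of P17 SOX9 peaks (%, vertical axis) that overlap a peak of each other list (horizontal axis) in 3 classes; points are shares and bars 95% Wilson intervals, which cover counting error only. In the 3 SOX lists, peaks with H3K27ac and no H3K4me3 lie between the other classes, at 24.9%, 21.3% and 8.41%. P2 H3K4me3, at 5.01% against 89.5% of peaks at H3K4me3, concerns the mark whose P17 list chose the classes.

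The P2 status and SOX8 went together across the sites. P17 SOX8 was present at 54 of 119 sites with P2 SOX9 (45.4%, 36.7 to 54.3%) and at 85 of 440 without it (19.3%, 15.9 to 23.3%). P2 SOX8 rarely occurred alone, since 45 of its 47 sites also had P2 SOX9. By combination, 353 sites (63.1%) overlapped no other SOX list, 85 overlapped P17 SOX8 alone, 42 P2 SOX9 alone, and 22 (3.94%) all 3 other lists. These joint counts are descriptions of the lists and were not tested. The same combinations are not given for the other P17 SOX9 peaks, so the counts do not set these sites apart. Sites outside protein-coding genes had P2 SOX9 in 29 of 78 cases (37.2%, 27.3 to 48.3%), sites inside a gene in 58 of 303 (19.1%, 15.1 to 23.9%) and sites over the other end of a gene in 2 of 47 (4.26%, 1.17 to 14.2%). By width, P2 SOX9 overlapped 30.7% of the 140 narrowest sites, 14.3% of the next 140, 16.5% of the next 139 and 23.6% of the 140 widest. The 123 P2 SOX9 peaks involved had a median width of 3464 bp, against 2668 bp for the whole P2 SOX9 list, and 16 of them (13.0%) lay at P2 H3K4me3.

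**Figure D4:**
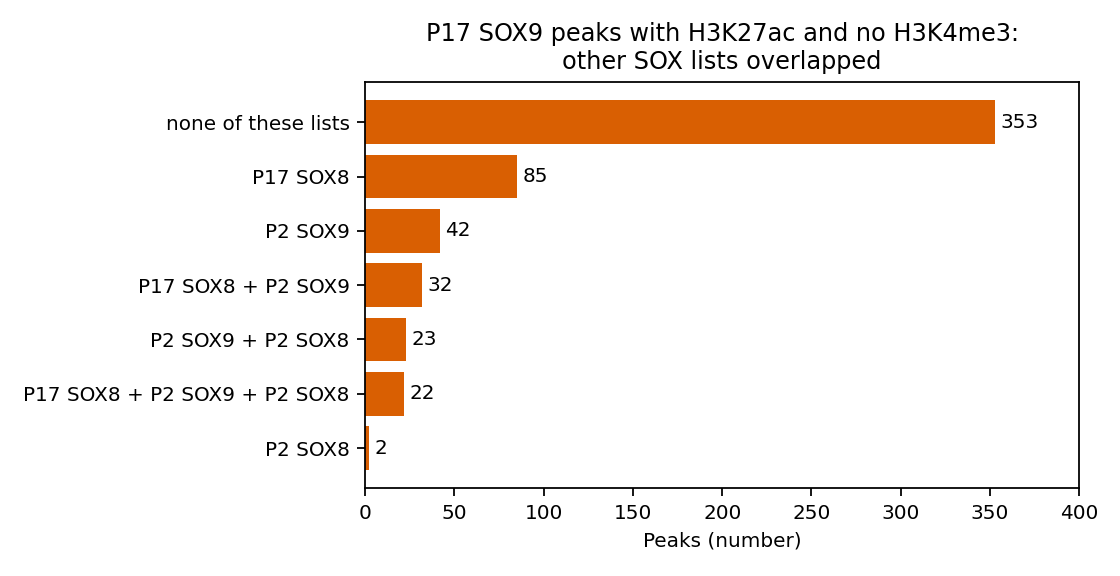
Number of P17 SOX9 peaks with H3K27ac and no H3K4me3 (horizontal axis) by which of the other SOX lists they overlap; each of the 559 peaks is counted once. The longest bar, 353 peaks, overlaps none of the 3 other lists. The same counts for other P17 SOX9 peaks are not shown.

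H3K27ac was present at P2 at 550 of the 559 sites (98.4%, 97.0 to 99.2%), against 97.1% of all P17 SOX9 peaks. The P2 H3K27ac list is far longer than the P17 list, with 287845 against 29909 peaks. With the full P2 list, the share was 98.6% of SOX9 peaks at H3K4me3 and 87.9% of those with neither mark. With only its widest 29909 peaks, the share was 77.8% (74.2 to 81.1%) of the sites. It was then 50.9% of SOX9 peaks at H3K4me3 and 55.3% of those with neither mark. P17 H3K27ac chose the sites and the cut keeps P2 peaks by width, so the class differences after it depend on the cut and were not tested. P2 H3K4me3 was present at 28 sites (5.01%, 3.49 to 7.14%), against 61.3% of all P17 SOX9 peaks. The choice left out peaks at P17 H3K4me3, of which 89.5% had P2 H3K4me3, so the 61.3% is not a like baseline. The 5.01% did not differ past the threshold from the 5.53% of peaks with neither mark, which also lack P17 H3K4me3 by choice (difference -0.519 points, interval -3.62 to 2.31, Fisher's exact adjusted p = 0.769).

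The 28 sites with H3K4me3 in the P2 list and not in the P17 list included 20 over a gene start or an end without strand, and 17 had P2 SOX9. At 8 of the 28 a P17 H3K4me3 peak lay within 2 kb. The widest spanned 26718 bp on chromosome 4 at 141001300 to 141028017, over the start of Mfap2, a microfibril protein of the extracellular matrix, and parts of Atp13a2 and Crocc, which encodes rootletin of the ciliary rootlet. It overlapped P2 SOX9 and P17 SOX8. The next were a 12140 bp site at Espn, an actin-bundling protein, an 11258 bp site 4021 bp from Tex44, a 10180 bp site at Hrc, Trpm4 and Ppfia3, and a 9788 bp site at Nab2 and Stat6. Among the narrower ones was a 7775 bp site over Apoe, the lipid carrier made by retinal glia, and Tomm40, of which H3K27ac covered 22.9%. This site overlapped no other SOX list.

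By gene, 589 of 21887 protein-coding genes (2.69%) had an H3K27ac-only SOX9 peak on the gene or within 5 kb, and 487 had one on the gene itself. Genes with a peak on them were long, with a median of 36.8 kb against 17.2 kb for all protein-coding genes. A site on several genes was counted for each, and 62 sites lay on 2 or more genes. Among these, 1 site of 6493 bp on chromosome 18 lay at the common end of a row of gamma protocadherin genes. It adds each of those genes to the counts, and their lengths run from 22328 bp (Pcdhgc5) to 180096 bp (Pcdhga1). Of these 487 genes, 299 (61.4%) had P17 H3K4me3 within 1 kb of a start, against 46.1% of all genes. Of the 589, 179 (30.4%) also had a SOX9 peak at H3K4me3, against 12.2% of all genes, and 322 (54.7%) had a P2 SOX9 peak on the gene or within 5 kb, against 27.7%. Longer genes have more room for a peak of any list, so these shares are given without a test.

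Several genes held a series of sites. Gse1, which encodes a coiled-coil protein of histone deacetylase complexes, held 9 along its 352.9 kb on chromosome 8, from 120273558 to 120571428. Of these 9, 7 overlapped P2 SOX9, 6 P17 SOX8 and 1 P2 SOX8. The last was the widest of all 559, 27245 bp from 120544184, wholly covered by H3K27ac. Gse1 also had 5 SOX9 peaks at H3K4me3 on it or within 5 kb. Dscaml1, a neuronal cell adhesion molecule, held 5, with SOX8 at 1 and P2 SOX9 at 2, and had no SOX9 peak at H3K4me3. Casz1 held 4, and Itpk1, an inositol phosphate kinase, held 4 of which none overlapped another SOX list. In all, 53 genes held 2 or more sites.

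**Figure D5:**
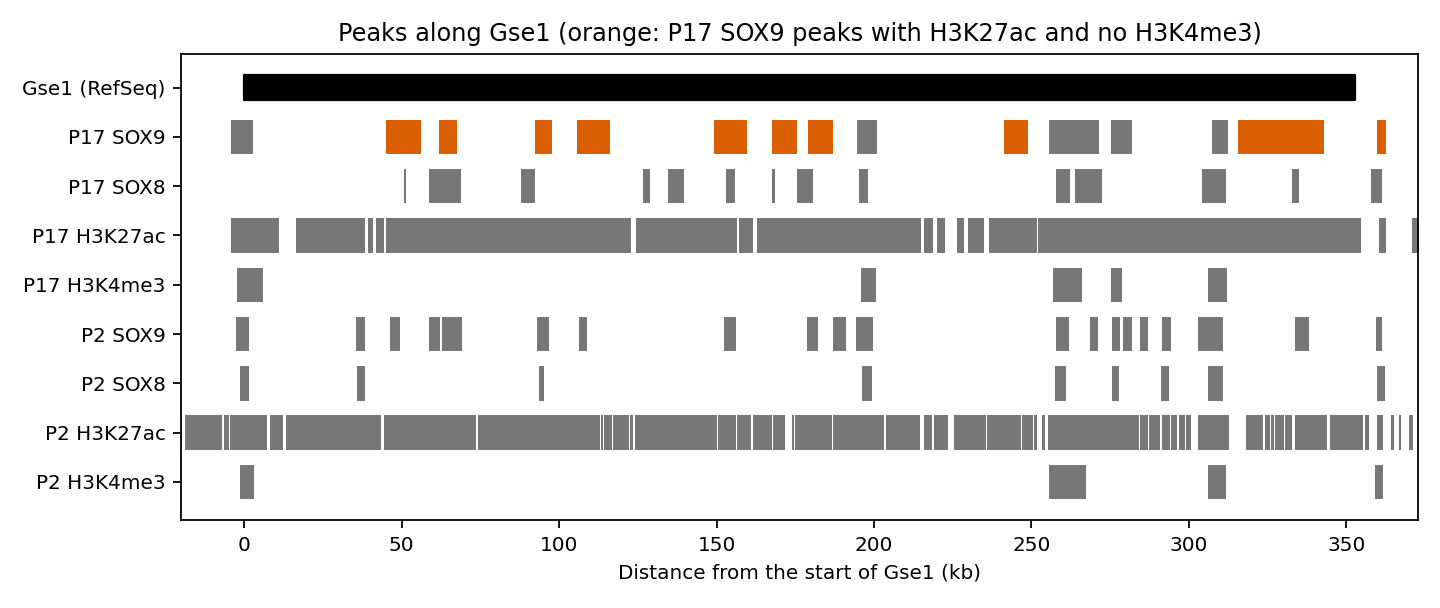
Peaks of the 8 lists along Gse1; the horizontal axis is the distance in kb from the start of the gene, and each block is a peak drawn to scale. The 9 orange SOX9 blocks within the gene overlap no P17 H3K4me3 block, and the orange block beyond the end of the gene is the site at Gins2.

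The widest sites lay at genes of varied function. After Gse1 and the Mfap2 region came a 19978 bp site in Lrp1, an endocytic receptor, of which H3K27ac covered 10.2% and which overlapped P2 SOX9 and P17 SOX8. A 19188 bp site at Cep170b overlapped 2 P17 SOX8 peaks and no P2 SOX peak. Sites of 15572, 15462, 15380, 15321, 14502 and 14400 bp followed in Casz1, at Camsap3 and Xab2, at Acvrl1, in Rxra, in Bcl9l and at Rap1gap. Rxra encodes a retinoid X receptor, Acvrl1 a receptor of the TGF-beta family and Bcl9l a coactivator of Wnt signalling. Of these 10 sites, those at Camsap3 and in Rxra overlapped no other SOX list.

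Sites with P17 SOX8 and no SOX at P2 were widest at Cep170b, Casz1, Rap1gap, Lama5 (13361 bp) and Matk with Zfr2 (13314 bp). Lama5 encodes a laminin chain of basement membranes and Matk a tyrosine kinase. The 22 sites in all 4 SOX lists were widest in an intergenic stretch on chromosome 2 at 30688119 to 30700941, which lies 79173 bp from Cstad. Next came 2 sites in Ccdc85c (12309 and 12192 bp), and those at Espn and near Tex44.

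The gene lists covered retinal cell types and glycolysis. Photoreceptor transcription factors had a site at 3 of 14 genes, bipolar cell genes at 3 of 18, glycolysis genes at 2 of 20, Müller glia genes at 2 of 28 and rod genes at 2 of 29. There was 1 of 20 for the photoreceptor synapse and 1 of 21 for amacrine, horizontal and ganglion cells. There was none of 14 cone genes, of 22 progenitor genes, or of 20 genes of microglia, endothelium, pigment epithelium and astrocytes. All protein-coding genes had a site in 2.69% of cases, and with 14 genes hit in all the counts are small. A site requires P17 H3K27ac, which lay on or within 5 kb of 12481 of all 21887 genes. It was at 14 of 14 photoreceptor transcription factors, 16 of 18 bipolar, 20 of 20 glycolysis and 29 of 29 rod genes. For cone, progenitor and the last list it was at 9 of 14, 11 of 22 and 6 of 20. The 2.69% is therefore not a like baseline either, and these counts were not tested. A SOX9 peak at H3K4me3 lay on or within 5 kb of 17 of 29 rod genes, 10 of 14 photoreceptor transcription factors, 11 of 20 photoreceptor synapse genes and 10 of 20 glycolysis genes, against 2678 of all 21887 genes (12.2%). It was at 3 of 28 Müller glia genes, 4 of 22 progenitor genes and 2 of 14 cone genes, and at 1 gene of each of the other 3 lists. Such a peak requires H3K4me3, which was at all genes of the rod, photoreceptor synapse and glycolysis lists and at 50.9% of all genes. The 12.2% is therefore not a like baseline for those lists, and the shares were not tested.

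Among photoreceptor transcription factors, Casz1, a zinc finger protein, had its 4 sites at 148840454 to 148856025, 148925195 to 148929929, 148936014 to 148941762 and 148946316 to 148953276 on chromosome 4. All 4 were wholly covered by H3K27ac. The first overlapped P17 SOX8 and no P2 SOX peak, and the other 3 overlapped P2 SOX9 and no P17 SOX8. Esrrb, a nuclear receptor of rods, held 2 sites on chromosome 12, at 86452420 to 86458750 and 86504555 to 86512894, with no other SOX list at either. Crx, the homeobox factor of photoreceptors, had a 6866 bp site that lay 385 bp outside the gene and 969 bp from H3K4me3, on chromosome 7 at 15858696 to 15865561. Each of the 3 also had a SOX9 peak at H3K4me3.

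Rod genes were represented by Slc24a1, the sodium, calcium and potassium exchanger of rods, with a 7084 bp site inside the gene, and by Reep6. The Reep6 site lay 2935 bp outside that gene, over the end of Adamtsl5, and overlapped P17 SOX8. Of Müller glia genes, Nfix, a nuclear factor I gene, had a 13272 bp site inside the gene on chromosome 8 at 84734445 to 84747716, which overlapped 1 P17 SOX8 and 2 P2 SOX9 peaks. The other was Apoe. Bipolar genes were Gng13, a G protein subunit of ON bipolar cells, whose site covered 6514 bp with 2 P17 SOX8 peaks, Nfasc and Cacna1s. Slc6a9, the glycine transporter of amacrine cells, had a 7218 bp site with P2 SOX9, and Elfn1, an adhesion protein of the photoreceptor synapse, a 4382 bp site with P17 SOX8.

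Glycolysis was represented by Hk1 (hexokinase) and Pfkl (phosphofructokinase), each with 2 sites. Both sites in Hk1, of 9956 and 6525 bp, overlapped P17 SOX8 and no P2 SOX peak. At Pfkl a 6436 bp site inside the gene overlapped P17 SOX8, while a 6199 bp site over the end of the gene overlapped no other SOX list.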

How the data were processed

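Peaks were deposited by the authors as BED lists of positions, 1 for each target and age, and the BED score was 0 in every peak. Per the submitters' processing notes, Bowtie2, SEACR and the build GRCm38 were used; versions, thresholds and the use of IgG are not given in the sources used here. Starts were counted from 1. Genes and promoter windows came from RefSeq GRCm38.p6, with 21887 protein-coding genes, of which 17492 had a strand from the promoter table. For genes without one, both ends counted as starts.

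Peaks overlapped when they shared 1 bp. Shares were compared by two-sided Fisher's exact tests with Benjamini-Hochberg adjustment over 7 comparisons (Python 3.11.15, scipy 1.17.1), and Wilson intervals cover counting error only. The overlap code and the tests were tested on simulated data. The members, the 10 gene lists (206 of 207 genes matched) and the tests were chosen with earlier results of these data known. Genes were named by rule: list genes with a peak, up to 4 a list, the 10 widest peaks, the 5 widest with P17 SOX8 and no P2 SOX, in all SOX lists, or with P2 H3K4me3, the 5 genes with the most peaks, and the 5 nearest each side of the threshold. A gene among those with the most peaks is not reported here. Promoters were printed by peak width, and the narrowest peak was named after its value was seen. Alternatives were another overlap rule, wider peaks, trimmed peaks, width strata, autosomes, distance from H3K4me3, extent of the marks and, chosen after seeing the data, peaks covering no gene start.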

Additional observations from a re-analysis of the deposited data

How the results depend on the processing

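The lists carry no score, depth or replicate, so no library could be left out. No paired analysis was possible because the lists name no replicate. Of 56 alternative values of the 7 comparisons, 54 kept their direction and their side of the threshold. The exceptions concern P2 H3K4me3 against peaks with neither mark, which was not past the threshold: the difference was 0.118 points when marks counted from 10% of the SOX9 peak and 1.14 points among peaks covering no gene start, a setting chosen after seeing the data. Sizes moved most for peaks at H3K4me3: the P2 SOX9 difference ranged from -59.9 to -30.7 points and the P2 SOX8 difference from -55.3 to -25.8. The P2 H3K27ac share moved to 77.8% with the widest P2 peaks in the P17 number. The number of genes moved to 1462 with a distance of 50 kb. The cause was not tested beyond what each setting does by construction. The 559 peaks became 560, 512 and 557 with marks covering at least 10%, at least 2 kb from H3K4me3, and on autosomes.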

Other observations

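MicroRNA genes lay within 9 of the 559 sites, which together held 10 of 1005 hairpins in the RefSeq table (GRCm38.p6). The same count is not given for other P17 SOX9 peaks, so it does not set these sites apart. One of the 9, named after the values were seen, was the 12628 bp site at Aatk on chromosome 11, at 120009230 to 120021857, which overlapped P17 SOX8 and no P2 SOX9. It contains Mir338, the gene of a microRNA known from neural tissue, whose mature forms are shown with the seed (bases 2 to 8) in capitals, since this microRNA sits under the site itself.
mmu-miR-338-3p: uCCAGCAUcagugauuuuguug
mmu-miR-338-5p: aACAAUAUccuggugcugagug
The Aatk site also held Mir3065, on the other strand, and the site at Cep170b held Mir6940.

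Sites were uneven over the chromosomes, and so were all P17 SOX9 peaks. Per 1000 protein-coding genes, chromosome 12 had 50.1 sites and 162 SOX9 peaks in all, chromosome 4 had 42.2 and 173, chromosome 3 had 8.14 and 80.4, and X had 2.07 and 13.5. The sites were 34 of 110 SOX9 peaks on chromosome 12, 56 of 230 on chromosome 4, 8 of 79 on chromosome 3 and 2 of 13 on X. Neighbouring sites were a median of 424.9 kb apart, and 43 of 539 gaps were under 10 kb. These values were not tested.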
